A study of Mus musculus with 4 samples.

Results

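The collagen genes were examined in tibialis anterior (TA), a limb muscle, and heart of MG56-knockout and wild-type mice. They were taken as every gene whose symbol on the array platform reads Col, 1 or 2 digits, a, and 1 or 2 digits, on probe sets (groups of short probes for one transcript) that carry 1 symbol. This rule found 42 collagen genes on 82 probe sets, of 18193 genes with 1 symbol, and all 42 matched a mouse gene in the RefSeq table by gene ID. That table holds 44 collagen symbols, and Col28a1 and Col6a6 have no probe set here. By textbook class, 11 genes code for fibrillar chains, 6 for type IV chains of basement membranes, 5 for type VI chains, 1 for type VII, 3 for types VIII and X, and 9 for FACIT chains. A further 2 genes code for multiplexins, 4 for transmembrane collagens, and 1, Col26a1, was left in no class. FACIT stands for fibril-associated collagens with interrupted triple helices.

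The series holds 4 arrays, 1 for each of 4 groups. They are knockout TA, wild-type TA, knockout heart and wild-type heart, all from C57BL/6J mice at postnatal day 9. Each knockout array was run on RNA mixed from 3 mice, and for the wild-type arrays the labels give no number of mice. The labels do not say which part of the gene was deleted or whether any promoter or Cre limits the deletion to a cell type. MG56 is the sarcoplasmic reticulum protein encoded by Hhatl. With 1 array in each group there is no replicate error and no test, so each ratio below compares 1 array with 1 array.

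Collagens are the main structural proteins of connective tissue. Each is built from 3-chain coils, and fibrillar collagens are secreted as procollagen, trimmed and cross-linked into fibrils, while type IV collagen forms the sheet-like network of basement membranes. In skeletal muscle and heart most fibrillar collagen is made by fibroblasts between the muscle cells, and the basement membrane wraps each muscle fibre and capillary. Type VI collagen forms beaded filaments next to the basement membrane, and its loss causes inherited muscle disease. FACIT chains sit on the surface of fibrils, and type XXII collagen is known from the junction of muscle and tendon.

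The values are MAS5 signals, a linear measure of brightness per probe set that was scaled by array. Median signals of the arrays ranged from 98.6 to 104.7, and 49.5% to 50.7% of the 45037 probe sets on each array reached 101.3, the median of all signals, which served as the floor. A gene is represented by its probe set with the highest mean signal. A comparison counted a gene as measured if either of its arrays was at the floor or above, and any signal under the floor was set to it, so that such a fold is given as "at least". Hhatl had a signal of 1078 in knockout TA and 5491 in wild-type TA, 5.09-fold lower in the knockout, and 880 in knockout heart against 2110 in wild-type heart, 2.40-fold lower. Its probe set may lie outside the deleted part, so this is no full check of the labels. Skeletal muscle markers were at least 1.5-fold higher in TA than in heart for 12 of 12 genes in wild type, and cardiac markers were higher in heart for 10 of 10.

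Of the collagen genes, 22 reached the floor on all 4 arrays, 14 on 1 to 3 arrays, and 6 on no array. The 6 genes under the floor throughout were Col6a4, Col6a5, Col9a2, Col9a3, Col10a1 and Col17a1. Types IX and X are cartilage collagens and type XVII anchors epithelial cells. A further 7 genes reached the floor on both TA arrays and neither heart array, and 2 did so on both heart arrays and neither TA array. A mean signal of at least 1000 was seen for 13 genes, here called bright: Col1a1, Col1a2, Col3a1, Col5a1, Col5a2, Col4a1, Col4a2, Col4a5, Col6a1, Col6a2, Col6a3, Col12a1 and Col14a1. Brightness depends on the probes, so signals are compared between arrays and not between genes.

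**Figure D1:**
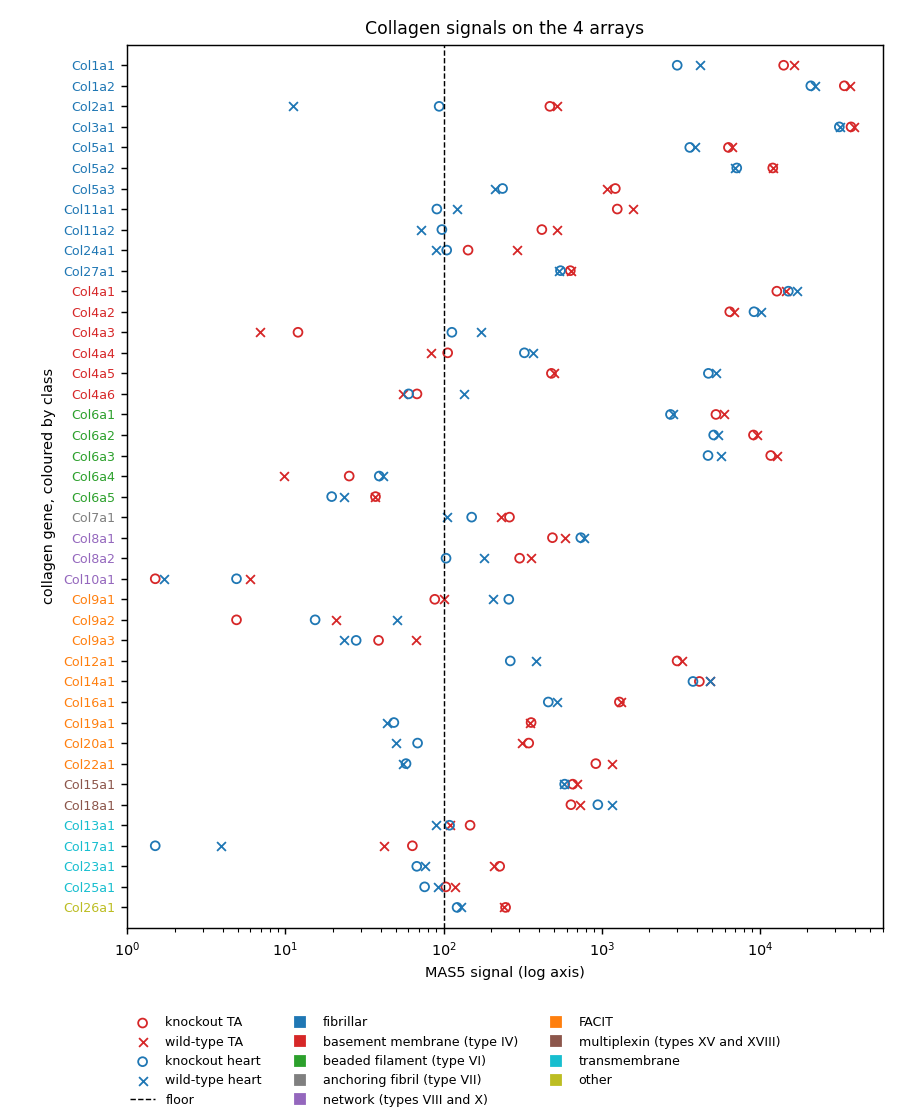
MAS5 signal (log axis) of each of the 42 collagen genes on the 4 arrays, with circles for knockout, crosses for wild type, red for TA and blue for heart; gene names are coloured by class. The dashed line is the floor of 101.3, and 6 genes lie to its left on every array, while circles and crosses of 1 colour lie close together for most genes and the colours lie apart.

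In the knockout comparison the collagen genes differed little, and the differences were mostly toward lower signals on the knockout arrays. In TA, 33 collagen genes were measured, and 1 of them, Col24a1, was at least 1.5-fold lower in the knockout, against 4.44% of the 11528 genes measured. No collagen gene was at least 1.5-fold higher in knockout TA, against 4.20% of all genes. In heart, 29 were measured, and 2 of them, Col8a2 and Col4a3, were at least 1.5-fold lower, against 4.19% of 11452 genes. No collagen gene was at least 1.5-fold higher in knockout heart, against 2.67% of all genes. The counts past 1.5-fold are thus near or under the background in both tissues.

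The signs of the ratios were less even than the sizes. In TA, 25 of 33 collagen genes had a lower signal in the knockout, where 51.2% of all genes did, with a median log2 ratio of -0.10 against -0.0082 for all genes. In heart, 21 of 29 were lower, where 50.3% of all genes were, with a median of -0.11 against -0.0016. Among the bright genes the direction was more uniform. In TA 13 of 13 bright collagen genes were lower in the knockout, where 53.7% of all genes with such signals were, with ratios from -0.23 to -0.01. In heart 12 of 13 were lower, against 52.2%, with ratios from -0.54 to 0.04, and the exception was Col5a2. After quantile normalization, which gives all arrays the same distribution, 11 of 13 were lower in TA, with Col3a1 and Col5a2 turned to 0.06 and 0.05, and 12 of 13 in heart. The median of the measured collagen genes was then -0.065 in TA and -0.10 in heart, and Col1a2 in TA went from -0.12 to -0.04. Skeletal muscle markers, most of them bright, were also lower in knockout TA for 10 of 12 genes, with a median of -0.11. The highest signal of any probe set was 46635 in knockout TA and 51018 in wild-type TA. The lean of bright genes in TA is thus not particular to collagens. As a measure of probe set noise, a second probe set of the same gene differed from the first by a median of 0.18 in log2 ratio over all genes in either tissue. In size, Col14a1, Col1a1 and Col4a1 passed this value in TA, and Col12a1, Col1a1, Col14a1 and Col6a3 did so in heart. Over the collagen genes alone the median was 0.10 in TA and 0.28 in heart, and Col6a3 did not pass the latter. For these genes, picked by the size on the first probe set, second probe sets gave smaller sizes. These were -0.19 in TA and -0.13 in heart for Col1a1, and 0.08 and 0.06 for Col14a1. For Col4a1 it was -0.11 in TA and for Col12a1 -0.26 in heart, while Col6a3 has 1 probe set. Other bright genes had larger sizes on the second probe set, such as Col3a1 at -0.23 in TA and -0.32 in heart and Col6a2 at -0.21 and -0.58. Among collagen genes with 2 measured probe sets, the first had the smaller size for 10 of 18 in TA and 11 of 17 in heart. Genes made by the same cells are not independent, and fewer cells of a type and less RNA per cell cannot be told apart in RNA of whole tissue.

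Fibrillar chains had median log2 ratios of -0.12 in TA, where 10 of 11 were lower in the knockout, and -0.02 in heart, where 5 of 9 were. Col1a1, a chain of type I collagen and of most fibrils in tendon, bone and muscle connective tissue, had signals of 14177 in knockout TA, 16440 in wild-type TA, 3007 in knockout heart and 4172 in wild-type heart. It was 1.16-fold lower in the knockout in TA and 1.39-fold lower in heart. Both knockout arrays were thus lower for Col1a1, and each TA array was well above each heart array. Col1a2, the other type I chain, had 34299 and 37391 in knockout and wild-type TA and 21060 and 22454 in heart, which are 1.09-fold and 1.07-fold lower in the knockout. Col3a1, which forms fibrils together with type I in extensible tissue, had 37820 and 39698 in TA and 31904 and 32380 in heart, 1.05-fold and 1.01-fold lower. On the probe sets that stand for each gene, the type I and III chains were therefore a little lower on both knockout arrays. Among them Col1a1 in heart stood furthest from an equal signal, but its second probe set had a log2 ratio of -0.13 there. Further probe sets in heart had -0.23 and 0.31 for Col1a2 and -0.32 for Col3a1, so the direction of Col1a2 depended on the probe set.

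Type V chains, which start fibrils and limit their width, were close to equal. Col5a1 had signals of 6342 and 6638 in knockout and wild-type TA and 3611 and 3901 in heart, 1.05-fold and 1.08-fold lower. Col5a2 had 12095 and 12210 in TA, 1.01-fold lower, and 7159 and 6963 in heart, 1.03-fold higher. Col5a3, a less common type V chain, was the fibrillar gene with a higher signal on both knockout arrays, at 1.13-fold in TA and 1.11-fold in heart. The type XI chain Col11a1, which joins type II collagen in cartilage fibrils, had signals of 1256 in knockout TA and 1580 in wild-type TA, 1.26-fold lower. In heart it had 90.7 and 122, at least 1.21-fold lower, so the heart arrays lay on either side of the floor. Col11a2 had 419 and 523 in TA, 1.25-fold lower, and Col2a1, the type II chain, had 471 and 519, 1.10-fold lower. Both were under the floor in heart, at 97.6 and 71.6 for Col11a2 and 93.8 and 11.2 for Col2a1 in knockout and wild type. Of the 7 genes of the cartilage types II, IX, X and XI, 3 were measured in the TA comparison, with a median log2 ratio of -0.32. Markers of cartilage and bone were mostly near background, with 8 and 9 of 10 under the floor in knockout and wild-type TA and summed signals of 489 and 594.

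Col24a1, the remaining fibrillar gene with a large ratio, codes for type XXIV collagen. It had a signal of 143 in knockout TA, 293 in wild-type TA, 105 in knockout heart and 89.8 in wild-type heart. It was 2.05-fold lower in knockout TA and at least 1.03-fold higher in knockout heart. The wild-type TA array alone stood out, and the other 3 arrays lay near the floor. The gene has 1 probe set, so no further probe set can be set beside it. Col27a1, a fibrillar chain of cartilage, had ratios of -0.02 in TA and 0.02 in heart.

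**Figure D2:**
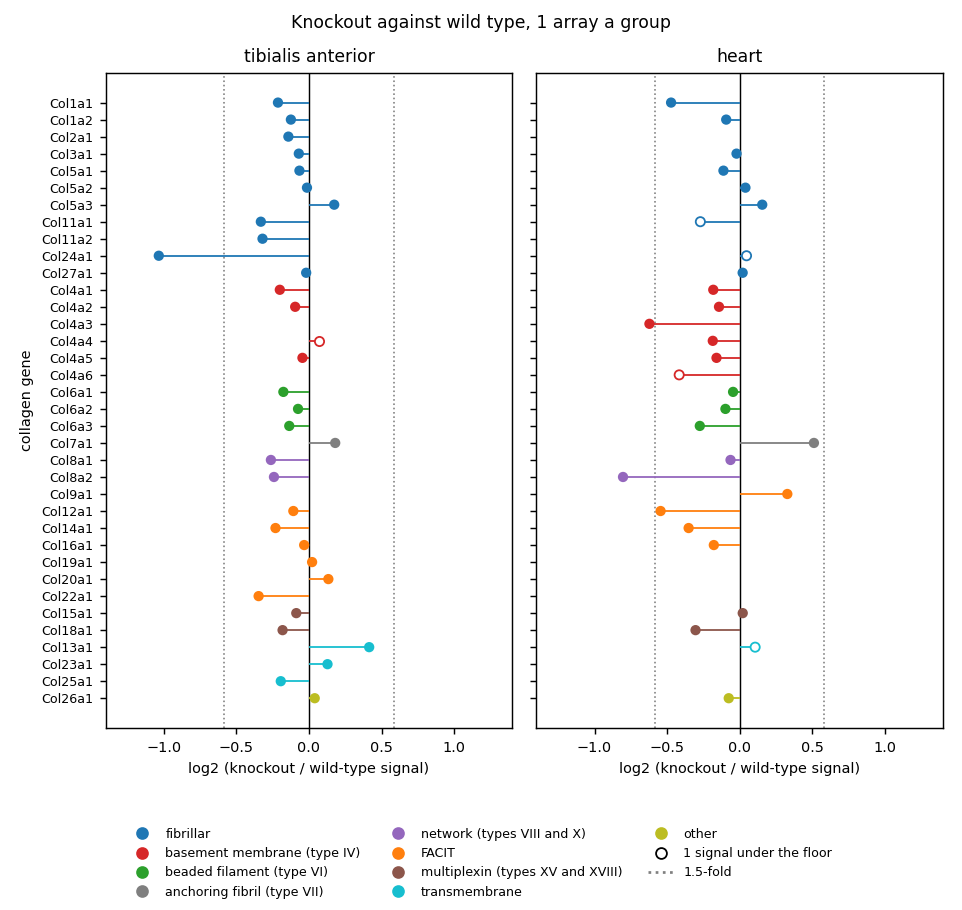
Log2 ratio of knockout to wild-type signal for each measured collagen gene, in TA (left) and heart (right), coloured by class, with open points where 1 signal was under the floor and dotted lines at 1.5-fold. Most points lie left of 0, and only Col24a1 in TA and Col4a3 and Col8a2 in heart pass the left dotted line.

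In the basement membrane class, 6 of 6 type IV genes were lower in the knockout heart, with a median log2 ratio of -0.18, while in TA 3 of 4 were lower, with a median of -0.07. Col4a1 and Col4a2, the chains found in nearly all basement membranes, are neighbours in the genome. Col4a1 had signals of 12834 and 14751 in knockout and wild-type TA and 15170 and 17205 in heart, 1.15-fold and 1.13-fold lower. Col4a2 had 6466 and 6906 in TA and 9201 and 10153 in heart, 1.07-fold and 1.10-fold lower. A further probe set of Col4a1 in heart had a log2 ratio of 0.33, so its direction there depended on the probe set. Col4a5, a chain of specialised basement membranes such as that of the kidney filter, had 481 and 496 in TA, 1.03-fold lower, and 4736 and 5289 in heart, 1.12-fold lower. Col4a3, its partner chain, had 12.0 and 6.90 in TA, under the floor, and 113 and 174 in heart, 1.54-fold lower. Its ratio was -0.37 as the median over its probe sets, under 1.5-fold. Col4a4 had 106 and 83.3 in TA, at least 1.05-fold higher, and 325 and 369 in heart, 1.14-fold lower. A second probe set of Col4a5 had a log2 ratio of 0.01 in heart. On the probe sets that stand for each gene, the type IV genes thus shared a direction in heart. Their sizes were small except in the low signals of Col4a3 and Col4a6. Endothelial markers, whose cells lay down much of this network, had summed signals over 10 genes of 12927 and 14714 in knockout and wild-type TA and 22855 and 23335 in heart. In knockout TA 6 of 10 were lower and 4 higher, where 51.2% of all genes were lower, with a median log2 ratio of -0.10. Egfl7 was furthest from equal there, at 1.68-fold lower. In heart 6 of 10 were lower, where 50.3% of all genes were, with a median of -0.02. The part of the endothelial markers in the type IV ratios was not tested.

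Of the type VI genes, Col6a1, Col6a2 and Col6a3 were measured, and all were lower on both knockout arrays. Col6a2 had signals of 9134 and 9623 in TA and 5116 and 5475 in heart, 1.05-fold and 1.07-fold lower. Its second probe set had log2 ratios of -0.21 in TA and -0.58 in heart, the same direction but larger. Col6a3, the chain that completes the filament, had 11744 and 12902 in TA, 1.10-fold lower, and 4712 and 5699 in heart, 1.21-fold lower. Col6a1 had ratios of -0.18 in TA and -0.05 in heart. The network collagens Col8a1 and Col8a2, which form hexagonal lattices under endothelia and in the eye, were also lower in both tissues on the probe set that represents each gene. Col8a1 had 489 and 586 in TA, 1.20-fold lower, and 738 and 771 in heart, 1.04-fold lower, but its second measured probe set had log2 ratios of 0.16 and 0.38, the other direction. Col8a2 had 303 and 358 in TA, 1.18-fold lower, and 104 and 181 in heart, 1.75-fold lower. This was the lowest collagen ratio in heart, and it rests on 1 probe set with a knockout signal just above the floor.

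FACIT chains had median log2 ratios of -0.07 over 6 genes in TA and -0.26 over 4 genes in heart. Col12a1, abundant in tendon and dense connective tissue, had signals of 3003 and 3236 in TA, 1.08-fold lower, and 264 and 386 in heart, 1.46-fold lower. Col14a1, its close relative on fibril surfaces, had 4153 and 4873 in TA and 3783 and 4827 in heart, 1.17-fold and 1.28-fold lower. Its second probe set had log2 ratios of 0.08 and 0.06, so its direction depended on the probe set. Col22a1 had 919 and 1169 in TA, 1.27-fold lower, and 57.9 and 55.8 in heart, under the floor. Col9a1 had 88.0 and 101 in TA, under the floor, and 259 and 206 in heart, 1.26-fold higher. Markers of tendon, a tissue rich in type XII collagen, summed to 29034 and 32672 over 8 genes in knockout and wild-type TA and to 1716 and 1680 in heart. Such sums weigh the brightest genes most. In knockout TA 7 of 8 tendon markers were lower, where 51.2% of all genes were, with a median log2 ratio of only -0.02. Tnmd was 1.20-fold and Fmod 1.19-fold lower, while Scx was 1.87-fold higher. The part of the tendon markers in the ratios of Col12a1 and Col22a1 was not tested.

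Among the other classes, the multiplexin Col18a1, which carries the endostatin fragment at vascular basement membranes, had 640 and 725 in TA, 1.13-fold lower, and 946 and 1168 in heart, 1.23-fold lower. Its relative Col15a1 had ratios of -0.09 in TA and 0.02 in heart. Higher signals in the knockout were seen in both tissues for Col7a1, the collagen of anchoring fibrils, and Col13a1, a transmembrane collagen of the neuromuscular junction, beside Col5a3. Col7a1 had 261 and 231 in TA, 1.13-fold higher, and 151 and 106 in heart, 1.43-fold higher. Col13a1 had 147 and 110 in TA, 1.33-fold higher, and 109 and 89.9 in heart, at least 1.08-fold higher. None of these passed 1.5-fold. Of the dimmer genes, Col16a1, Col25a1 and Col26a1 had ratios of -0.03, -0.19 and 0.04 in TA, and Col19a1, Col20a1 and Col23a1 had 0.02, 0.13 and 0.13. In heart Col16a1 and Col26a1 had -0.18 and -0.08, Col4a6 was at least 1.33-fold lower, and Col19a1, Col20a1, Col23a1 and Col25a1 were under the floor. In knockout and wild-type TA, fibroblast markers summed to 57178 and 61292 over 11 genes. In heart the sums were 62492 and 61271. No fibroblast marker passed 1.5-fold in the knockout in either tissue, and their median log2 ratios were 0.04 in TA and -0.07 in heart. The markers of cell division were lower in the knockout for 11 of 11 genes in each tissue, with medians of -1.35 in TA and -1.52 in heart. Their summed signals were 4034 and 9665 in TA and 5032 and 13444 in heart, and their part in the collagen ratios was not tested.

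Across the tissues, 26 collagen genes were measured in both knockout comparisons. Of these, 17 were lower in the knockout in both, which is 65.4%, where 30.5% of 10802 genes were, and 3 were higher in both, which is 11.5%, where 29.3% of all genes were. Of the 13 bright genes, 12 were lower in both, where 33.6% of all genes with such signals were. The count of 12 follows from the counts given above for each tissue and adds nothing to them. The count of 17 also builds on the lean in each tissue and is not read as added agreement between tissues. Over these 26 genes the log2 ratios in TA and heart had a Pearson correlation of 0.29 and a Spearman correlation of 0.51. Over all genes they were 0.31 and 0.27. These are correlations across genes, which are not independent replicates, and the ratios share their probes.

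**Figure D3:**
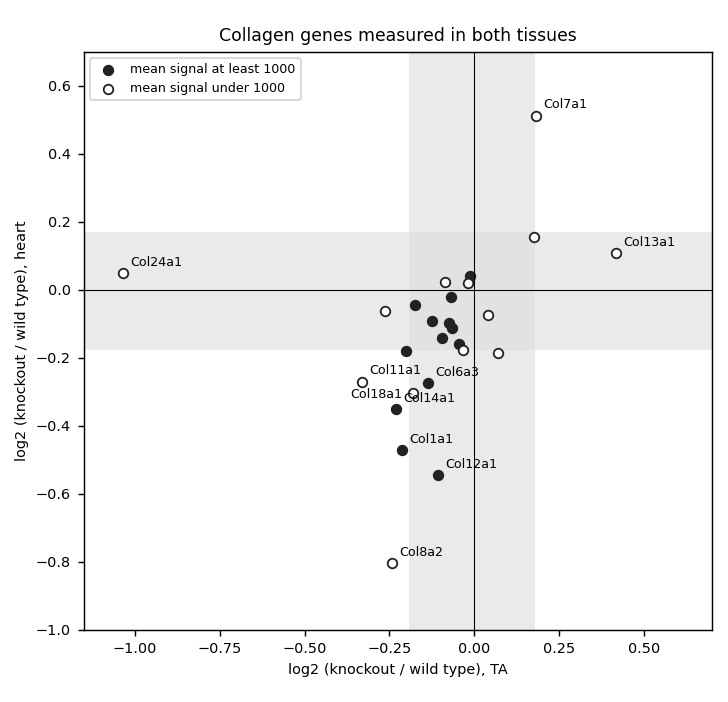
Log2 ratio of knockout to wild type in TA (horizontal) and heart (vertical) for the 26 collagen genes measured in both, filled where the mean signal was at least 1000; grey bands span the middle 50% of all measured genes. The 17 genes in the lower left corner were lower on both knockout arrays, Col24a1 lies far left at a heart ratio near 0, and Col7a1 and Col13a1 lie in the upper right corner.

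The difference between the tissues' knockout ratios (TA log2 ratio minus heart log2 ratio) had a median of 0.03 over the 26 genes. It passed 1.5-fold downward for 1 gene, Col24a1 at -1.08, where 5.10% of 10802 genes did, and upward for none, where 6.44% did. The next differences were -0.33 for Col7a1 and -0.20 for Col8a1 downward, and 0.56 for Col8a2, 0.44 for Col12a1 and 0.31 for Col13a1 upward. With 1 array a group these differences were not tested.

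Far larger differences were found between the tissues than between the genotypes. In wild type, 36 collagen genes were measured in TA or heart, and 21 were at least 1.5-fold higher in TA, against 14.5% of 11872 genes. At least 1.5-fold higher in heart were 5, against 18.0% of all genes. At 2-fold the counts were 15 and 3, where 898 and 926 of the 11872 genes passed. The median log2 ratio of TA to heart was 0.81 for the collagens and -0.07 for all genes, and 13 of the 36 ratios are lower bounds. In all, 27 of the 36 were higher in TA by any amount, where 44.8% of all genes were and 55.2% were higher in heart. By class, 11 of 11 fibrillar genes were higher in TA, 9 of them at least 1.5-fold, and 6 of 6 type IV genes were higher in heart, 3 of them at least 1.5-fold. Type VI was higher in TA for 3 of 3 measured genes, and FACIT for 6 of 7. The class medians were 1.53 for fibrillar, 1.09 for type VI, 1.64 for FACIT and -0.67 for type IV. The fibrillar and FACIT medians are lower bounds of single genes, Col24a1 and Col20a1, and the type IV median rests in part on the bound of Col4a3. Under the alternatives the medians ran from 0.75 to 1.71 for fibrillar, 1.33 to 1.71 for FACIT and -1.72 to -0.50 for type IV, with the sign kept.

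The fibrillar genes of types I, III and V were higher in TA by unequal amounts. Col1a1 was 3.94-fold higher in TA and Col5a3 5.10-fold higher, while Col1a2 was 1.67-fold, Col5a1 1.70-fold and Col5a2 1.75-fold higher. Col3a1 was 1.23-fold higher. The type I chains Col1a1 and Col1a2, which join in 1 molecule, thus had different tissue ratios on these probe sets. For Col1a2 the probe sets themselves differed, with log2 ratios of 0.74, 1.30 and 2.30, the last near that of Col1a1 at 1.98. For Col3a1 they gave 0.29 and 0.95.

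By the ratios with the floor, the 5 genes furthest toward TA were Col11a1, Col22a1, Col12a1, Col11a2 and Col2a1, of which Col22a1, Col11a2 and Col2a1 have only bounds, so no order among the 5 is read. Col11a1 was 12.9-fold higher in wild-type TA than in wild-type heart. Col22a1, under the floor in both hearts, was at least 11.5-fold higher in TA, and Col12a1 was 8.39-fold higher. The cartilage-type chains Col11a2 and Col2a1 were at least 5.16-fold and at least 5.12-fold higher. All of them were seen on both TA arrays well above both heart arrays. Tendon markers were at least 1.5-fold higher in TA for 7 of 8 genes, with a median log2 ratio of 3.02, and their part in these collagen ratios was not tested. Fibroblast markers had a median of -0.06, with 1 of 11 at least 1.5-fold higher in TA and 3 in heart. Schwann cell markers were at least 1.5-fold higher in TA for 5 of 7 genes.

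The other genes past 1.5-fold toward TA came from several classes. Of the FACIT chains, Col16a1 was 2.55-fold higher in TA, Col19a1 at least 3.48-fold and Col20a1 at least 3.11-fold. Further measured probe sets of Col20a1 had bounds of 1.0 and -0.38 in log2 ratio, so its direction depended on the probe set. Col14a1 was 1.01-fold higher on its first probe set, with a log2 ratio of 0.64 on its second. The type VI genes Col6a1, Col6a2 and Col6a3 were 2.12-fold, 1.76-fold and 2.26-fold higher. Col7a1 was 2.18-fold, Col8a2 1.98-fold and Col26a1 1.87-fold higher, and Col23a1 and Col24a1 were at least 2.05-fold and at least 2.89-fold higher. Under 1.5-fold toward TA were Col27a1, Col15a1, Col13a1 and Col25a1, with log2 ratios from 0.12 to 0.28. Every class except type IV thus had genes on the TA side.

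Toward heart, the 5 genes taken by the same rule were Col4a5, Col4a4, Col9a1, Col4a3 and Col18a1. Those of Col4a4, Col9a1 and Col4a3 are bounds, so these genes have no order among the 5. Col4a5 was 10.7-fold higher in wild-type heart than in wild-type TA. Of its partner chains, Col4a4 was at least 3.64-fold and Col4a3 at least 1.71-fold higher in heart. Col4a1 was 1.17-fold and Col4a2 1.47-fold higher in heart, and Col4a6 was at least 1.33-fold higher. Col4a1 and Col4a2, Col4a4 and Col4a3, and Col4a6 and Col4a5 neighbour each other in the RefSeq order, and both members of each pair were higher in heart. Col9a1 was at least 2.03-fold and Col18a1 1.61-fold higher in heart. Endothelial markers were at least 1.5-fold higher in heart for 7 of 10 genes, with a median log2 ratio of -0.85, and epicardial markers for 6 of 8. Their part in the type IV and Col18a1 ratios was not tested.

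On the knockout arrays, 35 collagen genes were measured in TA or heart, and 20 were at least 1.5-fold higher in TA, against 16.5% of 11833 genes. At least 1.5-fold higher in heart were 4, against 18.5% of all genes. The direction was that of the wild-type arrays for 35 of 35 collagen genes, where 81.7% of 11527 genes kept it. Past 1.5-fold in both genotypes were 20 genes toward TA and 3 toward heart. Col24a1 was the gene past 1.5-fold toward TA in wild type (at least 2.89-fold) and not on the knockout arrays (1.36-fold). The collagen difference between TA and heart was thus seen on the arrays of both genotypes.

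**Figure D4:**
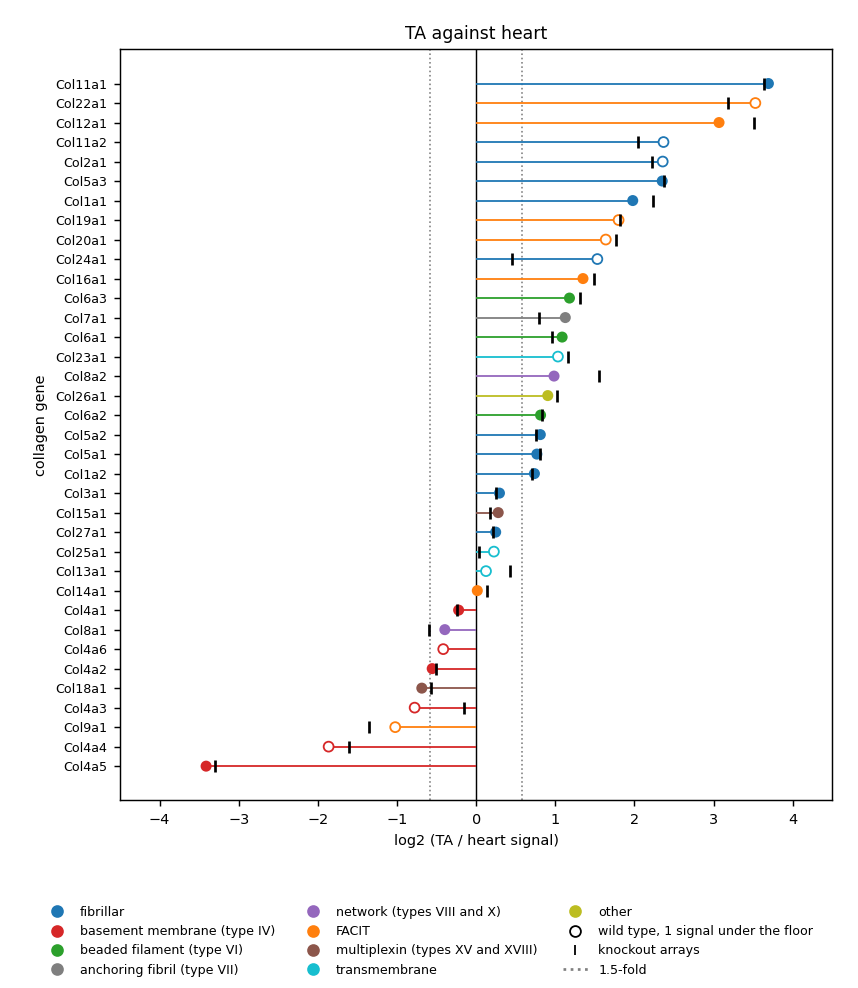
Log2 ratio of TA to heart signal for the 36 measured collagen genes, with points and lines for wild type coloured by class, open points where 1 signal was under the floor, and black ticks for the knockout arrays. Fibrillar, type VI and most FACIT genes lie right of 0, all 6 type IV genes lie left of it, and the ticks stay on the same side as the points.

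Promoter sequence is shown for genes at each end of this tissue difference (Col11a1 toward TA and Col4a5 toward heart) and for a pair of fibrillar genes seen at high signals in both tissues, Col1a2 and Col3a1. The windows are the 250 bases before the annotated start in RefSeq on build GRCm38.p6, plus strand, at chr6:4505368-4505617 for Col1a2, chr1:45311288-45311537 for Col3a1, chr3:114030290-114030539 for Col11a1 and chrX:141475169-141475418 for Col4a5. Capitals mark the motif CCAAT, the motif TATAAA and the motif GGGCGG, each searched on both strands, so that ATTGG is CCAAT on the other strand. The motif CAGCTG was searched too.
Col1a2: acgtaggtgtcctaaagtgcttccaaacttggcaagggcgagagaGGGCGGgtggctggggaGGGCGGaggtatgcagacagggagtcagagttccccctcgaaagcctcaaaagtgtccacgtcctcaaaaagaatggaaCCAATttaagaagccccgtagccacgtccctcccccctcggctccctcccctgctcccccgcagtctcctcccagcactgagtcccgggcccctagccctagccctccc
Col3a1: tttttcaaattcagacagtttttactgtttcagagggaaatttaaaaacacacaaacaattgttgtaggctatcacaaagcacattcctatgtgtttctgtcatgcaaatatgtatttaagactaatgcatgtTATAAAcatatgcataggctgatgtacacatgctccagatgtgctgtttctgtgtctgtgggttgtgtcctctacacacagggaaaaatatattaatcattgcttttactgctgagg
Col11a1: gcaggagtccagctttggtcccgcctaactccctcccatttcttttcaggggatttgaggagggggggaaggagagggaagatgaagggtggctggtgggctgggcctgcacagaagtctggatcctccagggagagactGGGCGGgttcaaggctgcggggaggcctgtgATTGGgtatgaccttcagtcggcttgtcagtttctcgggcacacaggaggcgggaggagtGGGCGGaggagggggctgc
Col4a5: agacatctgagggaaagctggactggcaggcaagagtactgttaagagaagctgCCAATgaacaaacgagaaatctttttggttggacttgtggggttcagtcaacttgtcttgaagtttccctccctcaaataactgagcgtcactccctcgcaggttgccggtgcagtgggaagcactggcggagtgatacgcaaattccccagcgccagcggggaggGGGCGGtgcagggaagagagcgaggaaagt
The Col1a2 and Col11a1 windows each hold 1 CCAAT and 2 GGGCGG and the Col4a5 window 1 of each, while the Col3a1 window holds 1 TATAAA and is AT-rich. Their GC contents are 62% for Col1a2, 62.4% for Col11a1, 54% for Col4a5 and 35.2% for Col3a1. Of 36 collagen windows from 33 genes, 58.3% hold GGGCGG, where 32.7% of all 32851 windows do. CCAAT is in 36.1% against 33.8%, TATAAA in 13.9% against 12.4% and CAGCTG in 16.7% against 13.0%. The median GC content was 59.0% in the collagen windows and 52.4% in all windows, and a GC-rich motif is met more often in GC-rich sequence. The tissue with the higher signal does not separate by these motifs in the 4 windows shown. A match is a description of the letters and not a site in use.

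Other genes of collagen biology, in lists of textbook members, had at most 2 members each past 1.5-fold in either tissue. Over all genes 4.20% were at least 1.5-fold higher and 4.44% lower in knockout TA, and 2.67% and 4.19% in knockout heart, so 1 member of a short list is at or above these shares. Enzymes and chaperones of folding and hydroxylation, which modify procollagen in the endoplasmic reticulum, had 1 of 23 at least 1.5-fold higher in TA and none lower, with a median log2 ratio of -0.04. The gene was P4hb, a subunit of prolyl 4-hydroxylase, at 1.52-fold. The other subunit genes of this enzyme on the list did not share this ratio in TA. P4ha1 had a log2 ratio of 0.005 and P4ha2 of -0.24, and P4ha3 was under the floor. In heart P3h2, a prolyl 3-hydroxylase, was 1.58-fold higher and Creb3l1, a transcription factor of secretory cells, 1.59-fold lower, with a median of -0.05. Enzymes of procollagen processing and cross-linking had 1 of 10 at least 1.5-fold lower in TA, Adamts3, which cuts off the procollagen amino end, at 1.76-fold, with a median of -0.17. In heart none of 9 passed 1.5-fold and the median was -0.17, with Pcolce, an enhancer of procollagen cleavage, 1.42-fold lower. These medians stand beside -0.10 and -0.11 for the collagens, and the difference was not tested.

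Fibril-associated proteoglycans and glycoproteins had none of 22 past 1.5-fold in TA, with a median of -0.02, and 1 of 20 in heart, Tnc (tenascin C) at 1.58-fold lower, with a median of -0.11. Laminins and other basement membrane genes had 1 of 14 past 1.5-fold in TA, Smoc2 at 1.69-fold lower, and none of 15 in heart, with medians of -0.11 and -0.01. Of the collagen receptors, 1 of 8 passed 1.5-fold in TA, Adgrg1, a receptor for type III collagen, at 2.12-fold higher. In heart none did, and 7 of 8 were lower, where 50.3% of all genes were, with a median of -0.16. Collagen-degrading enzymes had none of 8 past 1.5-fold in either tissue, with medians of 0.18 in TA and 0.07 in heart. Genes of TGF-beta and CCN signalling, a main inducer of collagen genes, had 1 of 18 higher and 1 lower in TA, with a median of 0.05, and 1 of 20 lower in heart, with a median of 0.00. The gene higher in TA was Ccn2 at 1.77-fold, and those lower were Ccn4 in TA at 1.61-fold and Ccn3 in heart at 1.85-fold.

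**Figure D5:**
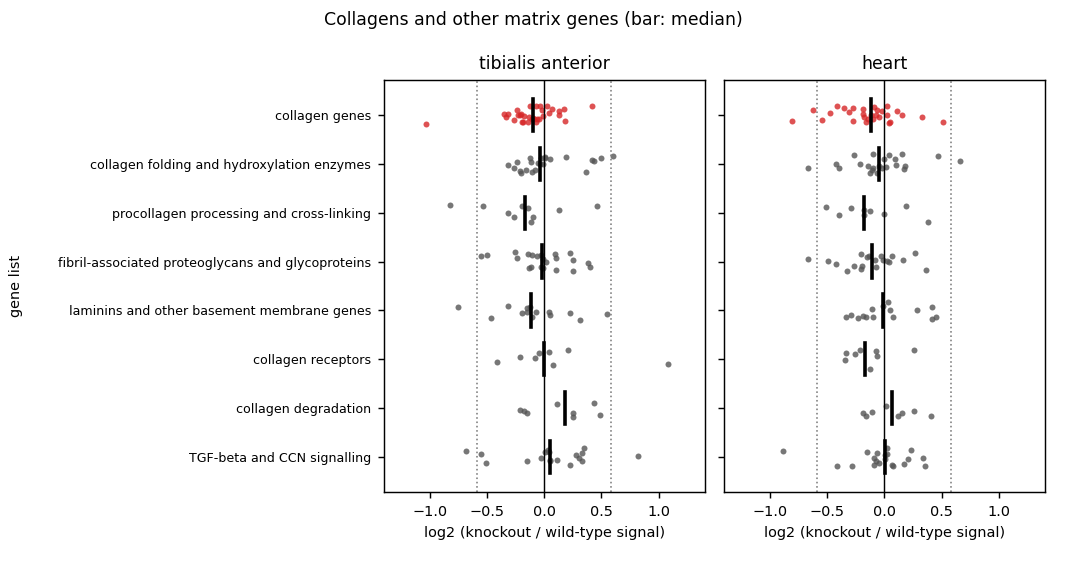
Log2 ratio of knockout to wild type in TA (left) and heart (right) for the measured members of the collagen genes (red) and 7 other gene lists (grey), with a bar at each median and dotted lines at 1.5-fold. The collagen medians are -0.10 and -0.11, and every list median lies between the dotted lines and close to 0.

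Between the wild-type tissues, where 14.5% of all genes were at least 1.5-fold higher in TA and 18.0% in heart, the lists had counts each way. At least 1.5-fold higher in TA were 6 of 23 folding genes, 4 of 10 processing genes and 7 of 22 fibril-associated genes. At least 1.5-fold higher in heart were 2, 4 and 2 of these. Laminins and other basement membrane genes had 1 of 15 higher in TA and 5 higher in heart, with a median of -0.35.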

How the data were processed

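RNA of TA and heart was measured on 4 Affymetrix arrays. The values are linear intensity signals deposited as 1 table, which the authors computed by MAS5 (named in the submitters' processing notes), with scaling details not given in the sources used here. Probe sets were named from GEO's platform annotation: of 45037, 34945 carry 1 symbol, 932 several and 9160 none, and only the first were used. Log2 ratios were computed with Python 3.11.15 and pandas 2.3.3 as the report describes (floor at the 50th percentile of all signals, 101.3, and 1.5-fold as the counted size). No test was made, since each group has 1 array, and the number of arrays limits the precision. The steps were tested on simulated data, where 200 of 200 planted changes were recovered in each tissue. The planted changes were at least 2-fold, in genes well above the floor and with little added noise. This checks the code only and says nothing of dim genes or small ratios. Values on all 4 arrays are given for collagen genes past 1.5-fold in a knockout comparison, the 10 brightest, the 5 largest tissue ratios each way and the 3 largest differences each way. Of other lists, the text names only members chosen from the 4 with the largest ratio, apart from P4ha1, P4ha2 and P4ha3, named beside P4hb. Members and lists were chosen with earlier results of these data known. Alternatives changed the floor, the scaling, the probe set of a gene and the fold counted.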

Additional observations from a re-analysis of the deposited data

How the results depend on the processing

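The median collagen log2 ratio kept its sign under every alternative run, at -0.12 to -0.06 in TA, -0.13 to -0.09 in heart and 0.74 to 0.88 for TA against heart. Counts at 1.5-fold moved with the floor, which sets both which genes count as measured and the value given to dim signals. With the floor at the 25th percentile (a signal of 26.8), 1 gene was higher and 2 lower in knockout TA, 1 and 4 in knockout heart, and 1 and 4 for the difference between the tissues' knockout ratios, while 8 were higher in heart than in TA. With the floor at the 75th percentile (471.5), 0 genes were lower in knockout TA, 0 in knockout heart and 0 in the difference, while 12 were higher in TA than in heart and 2 higher in heart. With no floor, 3 genes were higher and 4 lower in knockout TA, 2 and 5 in knockout heart, 4 and 5 for the difference, and 8 were higher in heart than in TA. Collagen genes measured in TA, heart and both were 38, 39 and 36 at the 25th percentile and 23, 17 and 17 at the 75th. With no floor there were 42 in each. Shares over all genes under these floors are not given, so these counts are not read against a background. Taking the median over a gene's probe sets left 1 gene lower in knockout heart. At 2-fold, 0 collagen genes were lower in knockout heart, where 137 of 11452 genes were. Higher in heart than in TA at 2-fold were 3, where 926 of 11872 genes were. Over the alternatives, the median of the type IV genes in TA ran from -0.10 to 0.13, and those of the fibrillar and FACIT genes in heart from -0.09 to 0.02 and from -0.27 to 0.05, so the sign of these 3 class medians turned. The log2 ratio in knockout TA ran from -0.15 to 0.06 for Col3a1 and from -0.05 to 0.05 for Col5a2. No paired analysis was possible because each group has 1 array. With 1 array a group the spread between animals is unknown, and signals under the floor give only bounds.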

Other observations

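Of 40 further collagen probe sets, those that do not stand for their gene, 3 passed 1.5-fold in a knockout comparison where the gene's own probe set did not. For Col27a1, a fibrillar chain, such a probe set had signals of 431 in knockout heart and 207 in wild-type heart, a log2 ratio of 1.05 beside 0.02. For Col23a1, a transmembrane collagen, it had 265 in knockout TA and 151 in wild-type TA, 0.81 beside 0.13. For Col20a1, a FACIT chain, it had 156 and 62.6 in TA, at least 0.62 beside 0.13. All 3 were higher in the knockout, against the direction of most collagen genes.

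Among collagen genes with a further measured probe set, the first 2 probe sets pointed the same way for 14 of 18 genes in the TA knockout comparison and 11 of 17 in heart. Over all genes the shares were 67.8% and 65.6%. For TA against heart in wild type, 19 of 20 pointed the same way, against 75.4% of all genes, and the exception was Col8a1, with log2 ratios of -0.40 and 0.23. Probe sets of a gene share its RNA and are not replicates.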
